A study of Rattus norvegicus with 28 samples.

Results

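A set of genes of the opioid and tachykinin peptide systems were followed in the orbitofrontal cortex of rats after self-administration of methamphetamine (meth), a psychostimulant, or saline. They are the peptide precursor genes Penk (ENSRNOG00000008943), Pdyn (ENSRNOG00000026036) and Tac1 (ENSRNOG00000007374) and the receptor genes Oprm1 (ENSRNOG00000018191) and Oprk1 (ENSRNOG00000007647). The set is defined by a list of identifiers, with no threshold on measured values, though it was drawn up with earlier results of these data known. The pairing of identifier and symbol was given with the set, since the count files hold identifiers only. All 5 of the 5 identifiers were present among the 26405 in the files, and all 5 passed the filter on low counts that left 15413 genes to test.

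Penk encodes proenkephalin, the precursor of the enkephalins, which act mainly at delta and mu opioid receptors. Pdyn encodes prodynorphin, the precursor of the dynorphins, which act mainly at the kappa receptor. Tac1 encodes the precursor of substance P and neurokinin A, tachykinin peptides that are not opioids but are often made by the same neurons as opioid peptides. Oprm1 and Oprk1 encode the mu and kappa receptors, which couple to inhibitory G proteins. In the striatum the precursors mark the main classes of projection neurons, Penk those of the indirect pathway and Pdyn and Tac1 those of the direct pathway, and dynorphin acting at the kappa receptor is known for its part in aversive states after psychostimulant exposure.

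The animals were Sprague Dawley rats trained on intravenous saline or Methamphetamine with tissue taken on day 2 or day 35 of withdrawal. Craving for the drug is known to grow between such early and late times. The orbitofrontal labels say short or long, which the design text gives as days. The groups were day 2 saline, day 2 meth, day 35 saline and day 35 meth, with 4 poly(A) RNA-seq libraries each. Each library held punches of orbitofrontal cortex pooled from 2 rats, so a replicate is a pool of animals and not 1 animal.

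Gene counts ranged from 20.33 to 48.47 M per library (M, the SI prefix mega), and the 4 day 2 saline libraries were the shallowest at 20.33 to 23.54 M. Day 2 meth replicate 1 was the shallowest of its group at 24.97 M, and its share of multiply aligned reads (10.29%) was the highest of all 16 libraries. The libraries of a group carry 1 index, so index and group cannot be told apart. Each of the 4 sequencing lanes held 1 library of every group. Marker genes that would check the dissection were not analysed here. In bulk tissue, a change in the number of cells that make a transcript and a change in transcript per cell cannot be told apart.

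Because Pdyn fell over withdrawal in meth rats past the threshold over all genes, the stretch before its annotated start is shown. It is the 250 bases upstream of the RefSeq start in the GRCr8 build (chr3:137366504-137366753, minus strand, written 5′ to 3′ along the gene), with the motif found in capitals.
Pdyn promoter: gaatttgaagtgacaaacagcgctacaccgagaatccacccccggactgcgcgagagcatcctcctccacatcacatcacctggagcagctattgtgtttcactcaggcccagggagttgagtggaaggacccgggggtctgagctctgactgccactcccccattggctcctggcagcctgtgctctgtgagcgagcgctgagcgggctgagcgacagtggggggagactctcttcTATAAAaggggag

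The capitals mark TATAAA, the letters of a TATA box, at positions -13 to -8 from that start. Positions are counted so that the base just before the start is -1. Whether these letters act as a TATA box, or bear on Pdyn levels, was not tested. These letters occur on either strand in 12.9% of 33469 promoter windows of 250 bases in the same table. The cAMP response element TGACGTCA (1.59% of windows), its core TGACG (18.2%, which includes every full element), the AP-1 motif TGANTCA (6.34%) and the E-box CACGTG (5.59%) were searched on both strands and are not in this window. The table also held windows for Tac1 and Oprm1. The Tac1 window has the core TGACG once, on the reverse strand at -206 to -202, and the E-box once at -72 to -67, and both Oprm1 windows have none of the 5 motifs. Penk and Oprk1 had no entry.

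Pdyn, the dynorphin precursor gene, was highest in day 2 meth libraries. Levels are in CPM, read counts over the TMM-scaled library size in M. In day 2 meth replicates 1 to 4 Pdyn stood at 55.7, 46.0, 41.9 and 42.4 CPM, and in day 2 saline replicates 13 to 16 at 27.6, 32.7, 31.2 and 31.2 CPM. All 4 meth libraries lay above all 4 saline libraries, which includes the pairs within each of the 4 lanes. Of all genes tested, 2.91% had all day 2 meth libraries above all day 2 saline libraries.

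At withdrawal day 35 the Pdyn levels of the drug groups overlapped. Day 35 meth replicates 5 to 8 had 24.2, 30.9, 32.5 and 24.5 CPM, and day 35 saline replicates 9 to 12 had 34.4, 32.3, 29.4 and 29.1 CPM. Both day 35 groups overlapped day 2 saline, and every day 2 meth library was above each of the other 12 orbitofrontal libraries. How many of all genes set a group apart from all others in this way was not counted. The group means were 46.5 ± 6.42 (SD, n = 4) in day 2 meth, 31.3 ± 2.51 in day 35 saline, 30.7 ± 2.17 in day 2 saline and 28.0 ± 4.32 CPM in day 35 meth. Each of the 3 lower groups overlapped the others.

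**Figure D1:**
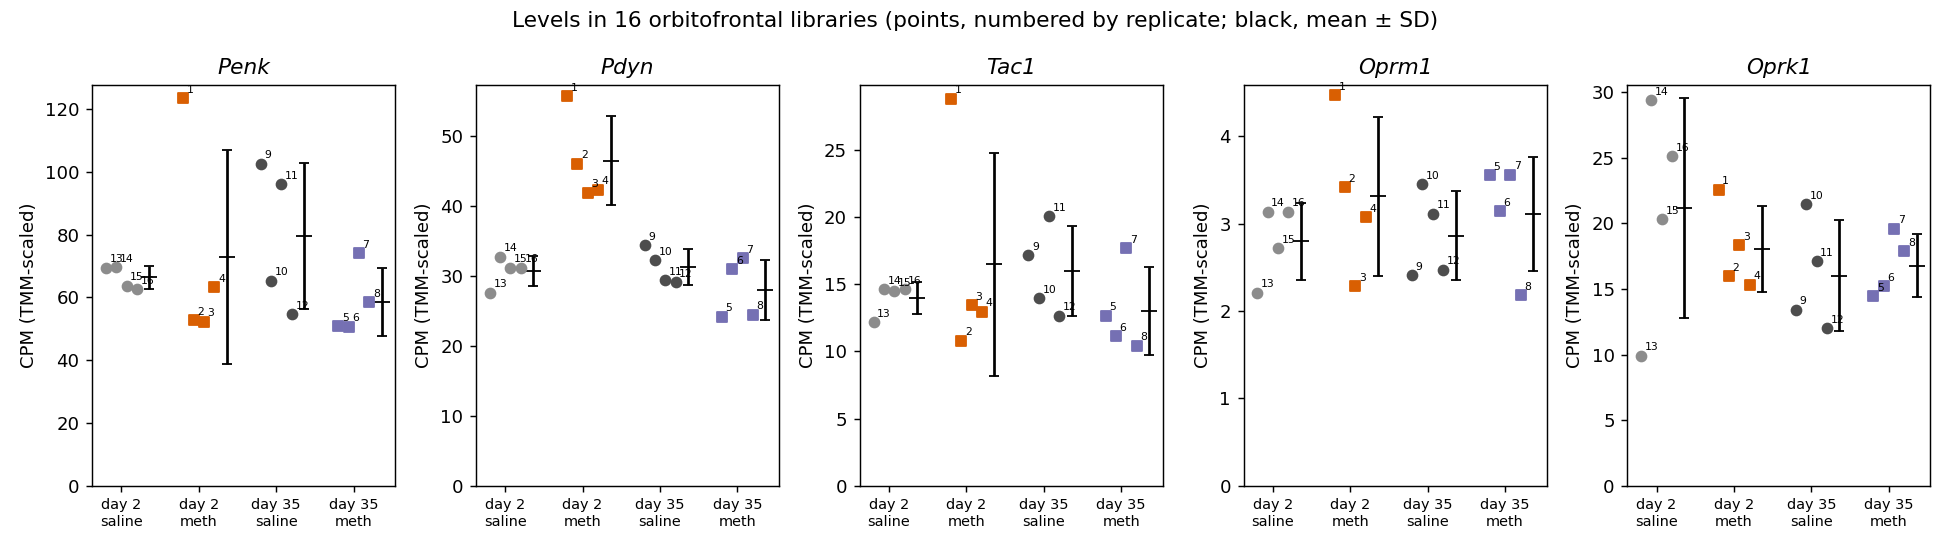
Levels of the 5 genes in CPM (linear axes from 0) in each of the 16 libraries, by group, with points numbered by replicate and black marks for the mean ± SD of 4 libraries. For Pdyn the 4 day 2 meth libraries (41.9 to 55.7 CPM) lie above all others, a pattern not counted over all genes. For Penk and Tac1 day 2 meth replicate 1 stands apart at 123 and 28.8 CPM.

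Over withdrawal, Pdyn fell in meth rats. From day 2 to day 35 its log2 level dropped by 0.72 (SE 0.107, edgeR quasi-likelihood adjusted p = 0.0034 over all genes), which is 1.65-fold lower (log2 95% confidence interval -0.95 to -0.49). The 4 day 35 libraries lay below the 4 day 2 libraries, which includes the pairs within each lane. Of all genes, 6.44% had groups that did not overlap in this direction. Pdyn alone of the 5 genes was called here, where 1.83% of all genes were called in either direction and 1.38% were called lower. Among the 213 genes called lower, 27 including Pdyn fell at least as far, and the median log2 fold change was -0.32. The call held in all 26 alternative analyses (adjusted p up to 0.045, in a fit of the meth libraries alone). Those that left out 1 saline library kept every library of this comparison.

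In saline rats Pdyn had a log2 fold change of 0.03 from day 2 to day 35 (SE 0.112, 95% confidence interval -0.21 to 0.27, edgeR adjusted p = 0.97). Levels at the 2 days overlapped. No gene was called in this comparison with edgeR (percent called 0), 1338 genes had an unadjusted p under 0.05, limma-voom called 0 and DESeq2 called 37.

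Between meth and saline at day 2 the Pdyn difference was 1.51-fold (log2 fold change 0.59, SE 0.111, 95% confidence interval 0.36 to 0.83), and it did not pass the threshold over all genes (unadjusted p = 8.8e-05, edgeR adjusted p = 0.062). It ranked 22nd by p-value of 15413 genes, where 17 were called (0.11% of genes tested, 0.0843% called higher). None of the 5 genes was called there with edgeR, and no other of the 5 had an unadjusted p under 0.05. The side of the threshold depended on the analysis. Pdyn passed in 4 of 26 alternatives. These were DESeq2 (adjusted p = 1.6e-05 over 5552 genes, of which it called 115) and all libraries thinned to 20.33 M counts (0.013). The others were the fits without day 35 meth replicate 5 (0.043) or replicate 7 (0.039). Day 35 libraries are not in this comparison and enter it only through the fit shared by all groups. Over all alternatives the log2 fold change ranged from 0.45 to 0.64 and the adjusted p reached 0.17. With lane as a block the adjusted p was 0.095.

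At day 35 the Pdyn log2 fold change between meth and saline was -0.16 (SE 0.109, 95% confidence interval -0.39 to 0.07, edgeR adjusted p = 0.91). No gene was called at this day with edgeR (percent called 0), 902 had an unadjusted p under 0.05, limma-voom called 0 and DESeq2 called 5. The meth effect on Pdyn, tested directly as a difference between the days, was lower at day 35 than at day 2 by -0.75 on the log2 scale (SE 0.155, 95% confidence interval -1.08 to -0.42, unadjusted p = 0.00023), with an edgeR adjusted p of 0.10. In this comparison edgeR called 0.136% of genes, and Pdyn ranked 34th by p-value. DESeq2 called 83 of 13022 genes there and gave Pdyn an adjusted p of 0.00054. The comparison at day 2, the one over withdrawal in meth rats and the difference of effects share the same 4 day 2 meth libraries and are not independent of each other.

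**Figure D2:**
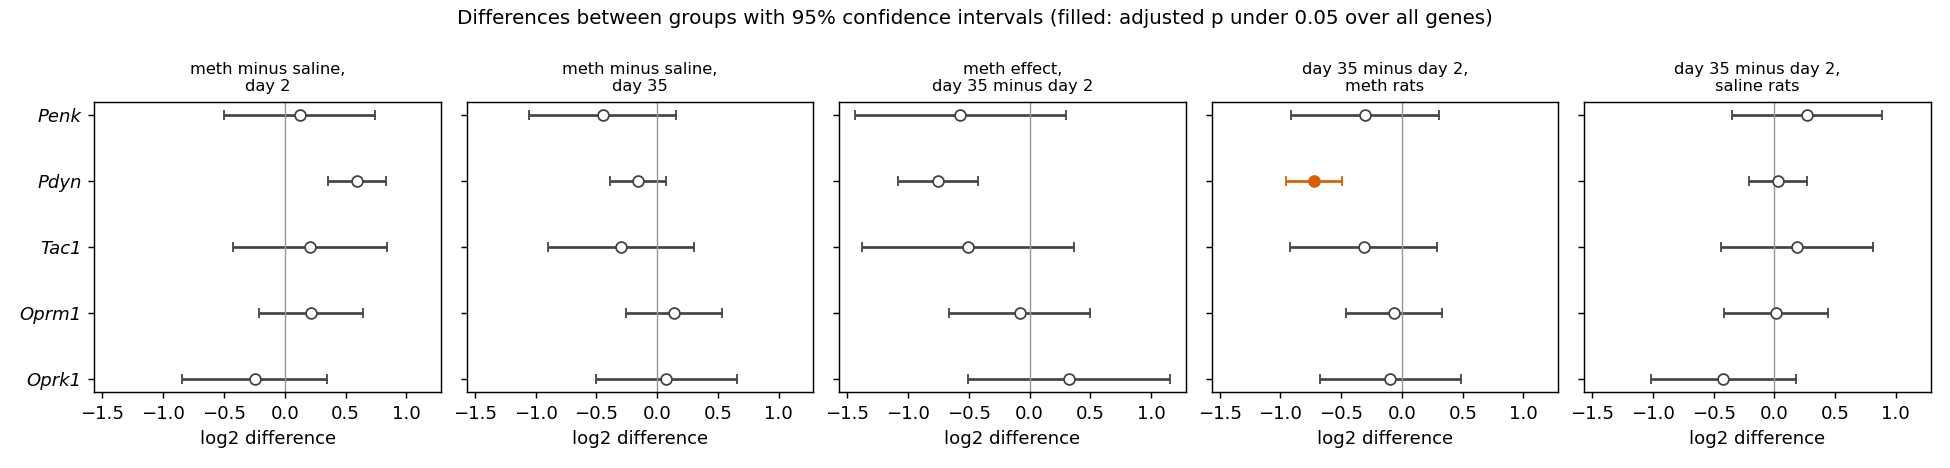
Log2 differences (x axis) of the 5 genes in 5 comparisons, with 95% confidence intervals from the model over all 16 libraries; filled points mark an adjusted p under 0.05 over 15413 genes. Pdyn over withdrawal in meth rats (-0.72) is the filled point, and the Pdyn intervals are narrower than those of the other genes.

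**Figure D3:**
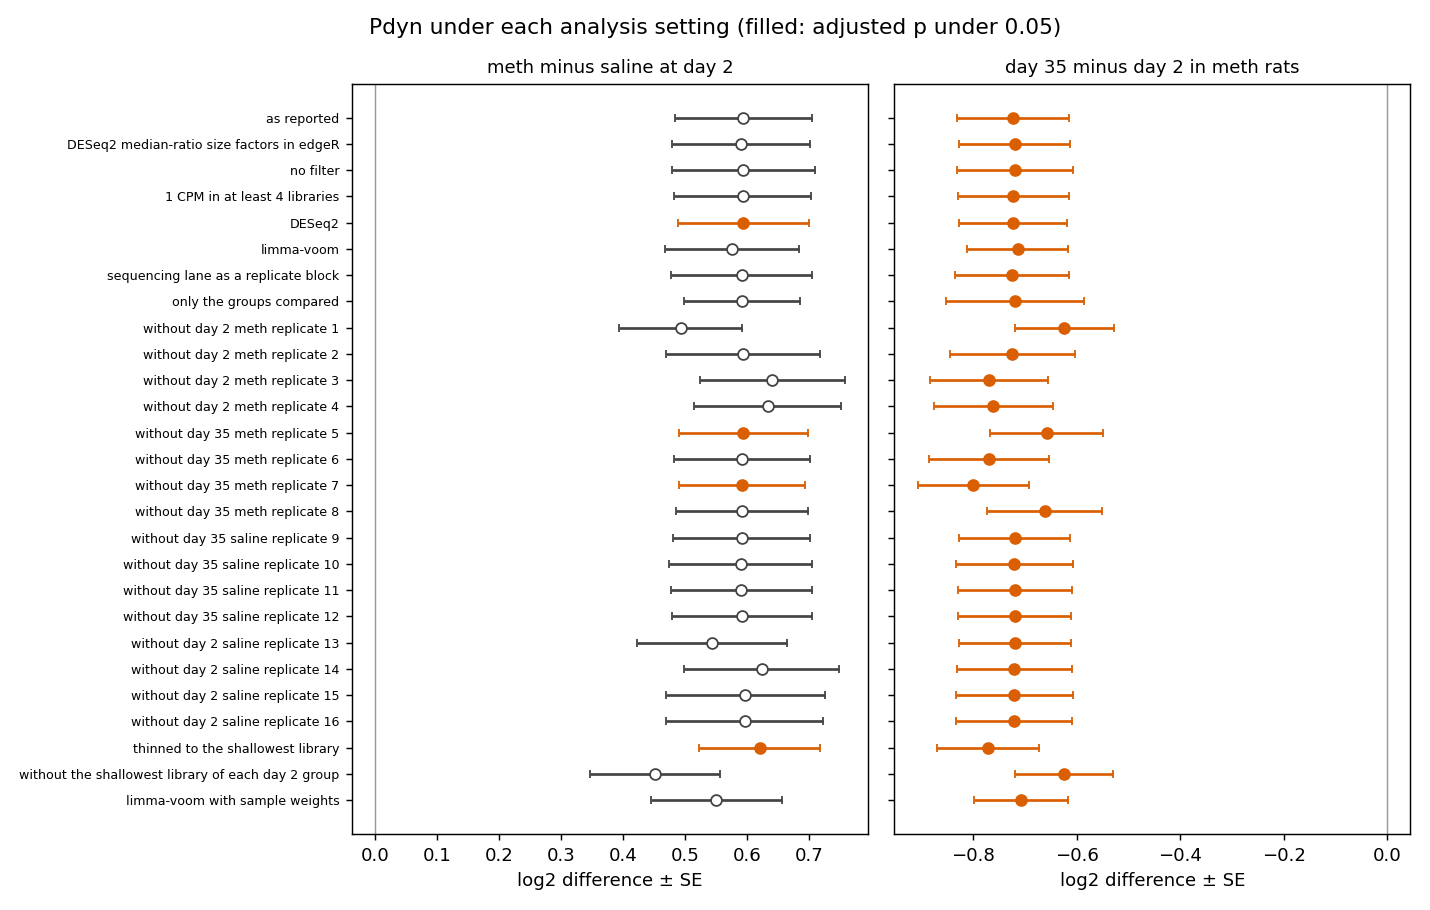
Log2 difference ± SE of Pdyn (x axis) under the reported analysis and 26 alternatives (rows), between meth and saline at day 2 (left) and between day 35 and day 2 in meth rats (right); filled points mark an adjusted p under 0.05. The left values lie between 0.45 and 0.64 with 4 alternatives past the threshold, and the right values are past it throughout.

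Penk, the enkephalin precursor gene, did not differ detectably between groups and varied widely between pools. Day 2 meth replicates 1 to 4 had 123, 52.8, 52.2 and 63.2 CPM, and day 2 saline replicates 13 to 16 had 69.5, 69.6, 63.7 and 62.6 CPM. Day 2 meth replicate 1 stood far above the other 3 meth libraries, of which replicates 2 and 3 lay below the saline range. Without replicate 1, the log2 fold change between meth and saline at day 2 turned from 0.12 (SE 0.286, edgeR adjusted p = 0.92) to -0.25 (SE 0.215, edgeR adjusted p = 0.71). Its direction at day 2 is therefore set by 1 library.

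At day 35 Penk stood at 103, 65.3, 96.0 and 54.5 CPM in saline replicates 9 to 12 and at 50.9, 50.6, 74.0 and 58.5 CPM in meth replicates 5 to 8. Saline replicates 9 and 11 were above all meth libraries, and the other 2 overlapped them. The log2 fold change was -0.45 (SE 0.278, 95% confidence interval -1.05 to 0.16, edgeR adjusted p = 0.91). The means ran from 79.6 ± 23.3 (SD, n = 4) in day 35 saline over 72.9 ± 34.1 in day 2 meth and 66.3 ± 3.69 in day 2 saline to 58.5 ± 11.0 CPM in day 35 meth, and no neighbours in this order differed beyond their spread. Over withdrawal the log2 fold change was -0.30 (SE 0.281) in meth rats, and 0.07 (SE 0.210) without day 2 meth replicate 1. It was 0.27 (SE 0.284) in saline rats.

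Tac1, the substance P precursor gene, had the same 4 libraries highest as Penk, day 2 meth replicate 1, day 35 saline replicates 9 and 11 and day 35 meth replicate 7. Day 2 meth replicates 1 to 4 had 28.8, 10.8, 13.4 and 12.9 CPM, and day 2 saline replicates 13 to 16 had 12.2, 14.6, 14.5 and 14.6 CPM. Day 2 meth replicate 1 was again far above the rest of its group, and the other 3 meth libraries overlapped the saline range or lay below it. The log2 fold change at day 2 was 0.21 (SE 0.291, edgeR adjusted p = 0.86), and -0.18 (SE 0.193, edgeR adjusted p = 0.76) without replicate 1. At day 35 Tac1 stood at 17.2, 13.9, 20.1 and 12.6 CPM in saline replicates 9 to 12 and at 12.7, 11.1, 17.7 and 10.4 CPM in meth replicates 5 to 8, with a log2 fold change of -0.29 (SE 0.278, 95% confidence interval -0.90 to 0.31).

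Group means of Tac1 were 16.5 ± 8.28 (SD, n = 4) in day 2 meth, 15.9 ± 3.33 in day 35 saline, 14.0 ± 1.21 in day 2 saline and 12.97 ± 3.28 CPM in day 35 meth. No neighbours in this order differed beyond their spread. Over withdrawal the log2 fold change was -0.32 (SE 0.280) in meth rats, 0.08 (SE 0.186) without day 2 meth replicate 1, and 0.19 (SE 0.289) in saline rats.

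Penk and Tac1 varied together across the 16 libraries. Of the 10 pairs of the 5 genes, theirs was the pair whose correlation of log2 CPM passed the threshold (Pearson r = 0.89, permutation p = 6e-05, Benjamini-Hochberg adjusted 0.0006; Spearman rho = 0.78, permutation p = 0.00052, adjusted 0.0052). The libraries farthest from the Penk median were replicate 1 of day 2 meth and replicate 9 of day 35 saline, and without them r was 0.80 (permutation p = 0.001). With values centred on group means it was 0.88, and 0.72 when day 2 meth replicate 1 was also left out. These are relations between pools of tissue, and they do not show in which cells the transcripts lie.

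Pdyn followed Penk less closely over libraries, with r = 0.35 (permutation p = 0.20, adjusted 0.28; Spearman rho = 0.31, permutation p = 0.23), which was -0.13 without the same 2 libraries. With Tac1 its r was 0.45 (permutation p = 0.11, adjusted 0.22; rho = 0.39, permutation p = 0.14). Centred on group means, 5 pairs passed the threshold, among them Pdyn with Penk (r = 0.58) and with Tac1 (r = 0.62). Leaving out day 2 meth replicate 1, the highest of its group for all 5 genes, left these at 0.31 and 0.38, and then 1 pair, Penk and Tac1, passed. The permutations of centred values moved them freely across groups and did not allow for the group means removed. Their p-values are therefore too small, and fewer pairs may pass than counted here.

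**Figure D4:**
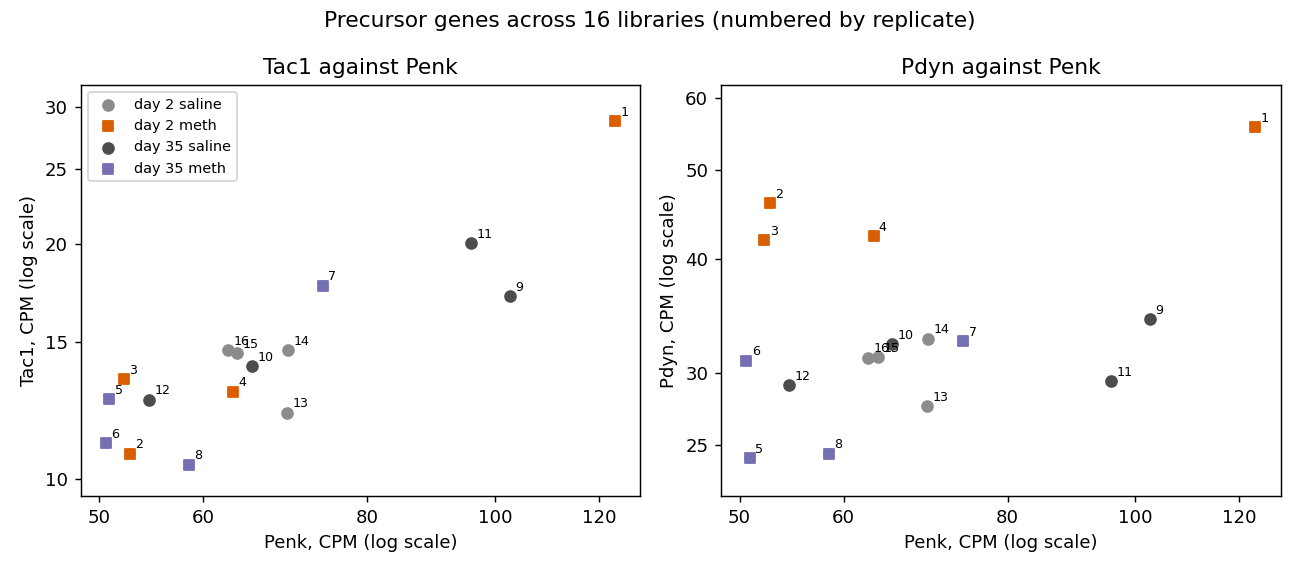
Tac1 (left) and Pdyn (right) against Penk in CPM on log axes, 1 point per library, numbered by replicate and coloured by group. Tac1 rises with Penk over all 16 libraries (r = 0.89), while day 2 meth replicates 2 to 4 have more Pdyn than other libraries of like Penk level, and replicate 1 is at the upper right of both panels.

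Whether Pdyn moved differently from the other precursors was tested on the ratio of their counts within each library, which does not depend on library scaling. The ratio of Pdyn to Penk was 0.452, 0.873, 0.803 and 0.670 in day 2 meth replicates 1 to 4 and 0.398, 0.470, 0.490 and 0.498 in day 2 saline replicates 13 to 16. Meth replicates 2 to 4 lay above all saline libraries and replicate 1 lay among them. On the log2 scale the ratio was higher by 0.55 in meth (2-sided exact permutation test, p = 0.11, adjusted over 8 such tests 0.29). Between the days in meth rats it differed by -0.50 (exact permutation p = 0.086, adjusted 0.29). The ratio of Pdyn to Tac1 differed by 0.46 and -0.47 in these comparisons (exact permutation p = 0.14 each, adjusted 0.29). Without day 2 meth replicate 1 the differences were 0.75 and -0.69 for Penk and 0.68 and -0.69 for Tac1, each with an exact permutation p of 0.057, the smallest that 3 against 4 libraries allow. Without day 2 meth replicate 2 those for Tac1 were 0.30 and -0.30 (exact permutation p = 0.29 each). With all libraries, no ratio passed the threshold. With 4 libraries per group, no ratio alone could pass after adjustment over the 8 tests, however far apart the groups lay. Whether Pdyn moved differently is therefore not decided by these tests.

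Oprm1, the mu receptor gene, was measured from few reads, 45 to 157 per library. It stood at 4.47, 3.41, 2.29 and 3.07 CPM in day 2 meth replicates 1 to 4 and at 2.21, 3.14, 2.72 and 3.14 CPM in day 2 saline replicates 13 to 16. At day 35 the meth libraries, replicates 5 to 8, had 3.56, 3.14, 3.56 and 2.18 CPM, and the saline libraries, replicates 9 to 12, had 2.41, 3.45, 3.11 and 2.47 CPM. All 4 groups overlapped. The means were 3.31 ± 0.906 (SD, n = 4) in day 2 meth, 3.11 ± 0.650 in day 35 meth, 2.86 ± 0.507 in day 35 saline and 2.80 ± 0.442 CPM in day 2 saline, with no neighbours apart beyond their spread.

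The counting error of Oprm1 alone amounts to 8.79 to 12.5% of its level, against a spread between pools of 15.8 to 27.4%. The log2 fold change between meth and saline was 0.22 (SE 0.202, 95% confidence interval -0.21 to 0.64, edgeR adjusted p = 0.76) at day 2 and 0.14 (SE 0.187, -0.26 to 0.53, edgeR adjusted p = 0.97) at day 35. Without day 2 meth replicate 1 the value at day 2 was 0.050, and without day 2 meth replicate 3 it was 0.36 (edgeR adjusted p = 0.95 and 0.58). The interval at day 2 reaches a 1.56-fold difference.

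Oprk1, the kappa receptor gene through which dynorphin acts, varied most between the day 2 saline pools. Their replicates 13 to 16 had 9.91, 29.4, 20.3 and 25.1 CPM, so that replicate 13 was the lowest and replicate 14 the highest of all 16 libraries. Replicate 13 was also the shallowest library, at 202 reads of Oprk1 against 479 to 693 in the other 3. Day 2 meth replicates 1 to 4 had 22.6, 16.0, 18.3 and 15.3 CPM and lay inside the saline range.

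Day 35 saline replicates 9 to 12 had 13.4, 21.5, 17.1 and 12.0 CPM of Oprk1, and day 35 meth replicates 5 to 8 had 14.4, 15.2, 19.6 and 17.9 CPM. The means ran from 21.2 ± 8.38 (SD, n = 4) in day 2 saline over 18.0 ± 3.27 in day 2 meth and 16.8 ± 2.38 in day 35 meth to 16.0 ± 4.22 CPM in day 35 saline, and all groups overlapped. Between meth and saline the log2 fold change was -0.25 (SE 0.274, edgeR adjusted p = 0.81) at day 2, -0.48 (edgeR adjusted p = 0.46) without day 2 saline replicate 13, and -0.054 (edgeR adjusted p = 0.97) without replicate 14. It was 0.08 (SE 0.268, edgeR adjusted p = 0.99) at day 35. Over withdrawal it was -0.42 (SE 0.275, 95% confidence interval -1.02 to 0.17, edgeR adjusted p = 0.72) in saline rats and -0.10 (SE 0.268) in meth rats. The value in saline rats was -0.65 (unadjusted p = 0.0083, edgeR adjusted p = 0.40) without day 2 saline replicate 13 and -0.22 (edgeR adjusted p = 0.90) without replicate 14.

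Averaged over both days, none of the 5 genes was called between meth and saline, where 0.013% of all genes were. The log2 fold changes ranged from -0.16 for Penk to 0.22 for Pdyn (SE 0.078, unadjusted p = 0.014, edgeR adjusted p = 0.62).

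All 5 genes varied more between replicate pools than most genes of like abundance. The spread beyond counting error, given as the biological coefficient of variation, was 27.1% for Penk, 27.0% for Tac1, 27.0% for Oprk1, 16.8% for Oprm1 and 10.4% for Pdyn, against 6.25% as the common value of all genes. Among genes within 0.5 log2 CPM of each, the median was 3.98%, 5.70%, 5.42%, 9.59% and 4.50% in the same order. Penk, Tac1 and Oprk1 were at or above 99.9%, 99.7% and 99.6% of those genes, Pdyn 94.7% and Oprm1 90.2%. These values pool the groups, and the spread was uneven over them. By group, the coefficient of variation of Penk CPM ranged from 5.56% in day 2 saline to 46.7% in day 2 meth. For Tac1 it ranged from 8.65% to 50.2% in the same groups, and for Oprk1 from 14.2% in day 35 meth to 39.5% in day 2 saline. Over all 16 libraries, with differences between groups included, the highest library exceeded the lowest by 2.44-fold for Penk and 2.30-fold for Pdyn. It did so by 2.76-fold for Tac1, 2.05-fold for Oprm1 and 2.97-fold for Oprk1. For Pdyn the highest library was of day 2 meth and the lowest of day 35 meth.

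Penk and Tac1 had the same closest gene in pattern. Over 13560 genes at 1 CPM or more, the identifier closest to both Penk and Tac1 by Pearson r of log2 CPM over the 16 libraries was ENSRNOG00000001302 (r = 0.93 and 0.95, mean level 8.17 CPM). For Pdyn it was ENSRNOG00000001156 (r = 0.89), for Oprm1 ENSRNOG00000004516 (r = 0.81) and for Oprk1 ENSRNOG00000046852 (r = 0.96). The files do not pair these identifiers with names.

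At r of 0.8 or more there were 20 genes for Penk, 24 for Tac1, 36 for Oprk1, 19 for Pdyn and 1 for Oprm1. The Penk and Tac1 lists shared 15 genes, 75.0% of the first and 62.5% of the second. The lists of Pdyn, Oprm1 and Oprk1 shared 0 genes with these or with each other. The correlations share the same libraries and depths and are descriptions across genes, with no test. They were not recomputed without day 2 meth replicate 1, the highest of all libraries for both Penk and Tac1. Penk and Tac1 themselves correlated at r = 0.89 over these libraries, so genes shared by their lists are no separate evidence of a relation.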

How the data were processed

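Poly(A) RNA was measured in 16 orbitofrontal libraries; 12 further samples, of central amygdala, were not analysed here. The deposited values are raw read counts per Ensembl gene, 1 file per library. TopHat, HTSeq, limma and the rn4 build are named per the submitters' processing notes. Their versions and how strand was treated in counting are not given in these sources, so reads of overlapping or antisense genes cannot be told apart. The 5 summary rows (31.13 to 32.61% of reads) were left out.

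Genes were filtered with edgeR's filterByExpr, scaled with TMM and fitted as 4 group means over all 16 libraries with glmQLFit (robust) and glmQLFTest (edgeR 4.0.16, R 4.3.3), with Benjamini-Hochberg adjustment over 15413 genes and a threshold of 0.05. Standard errors were obtained from the log2 fold change over the root of F. Log2 CPM for correlations used a prior count of 2, with 100000 resamples. DESeq2 1.42.0 and limma 3.58.1 were alternatives. The fit was tested on simulated data. The members and lists were chosen with earlier results of these data known. All 5 members are named; for each the closest gene by r is named. Lists fixed by symbol (other opioid and tachykinin genes, processing, signalling, activity and cell type markers) and the search for peptide motifs were not run, because the files give identifiers without symbols and no protein table was used here. Promoter windows are from RefSeq (GRCr8), matched by symbol for 3 of the 5 genes.

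Lane numbers pair 1 library of each group. Deviations from group means correlated by 0.026 on average over 24 same-lane pairs (-0.27 to 0.24) and by -0.009 over 72 others. The 24 within-group pairs differed by 5.19 to 17.0 times the chi-square expected from counting, so none was counted as a repeat. The labels do not say which cohort of rats a library came from. P-values cover the spread between pools.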

Additional observations from a re-analysis of the deposited data

Results flagged for a closer look

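In 3 of 20 sets of 4 libraries (5 genes, 4 groups), 1 library stood apart from the other 3 of its group, and by chance about 1 in 20 would; libraries recur across sets, which are not independent. Day 2 meth replicate 1 had 123 CPM of Penk against 52.2 to 63.2 CPM in the other 3, and 28.8 CPM of Tac1 against 10.8 to 13.4 CPM. It was the highest of its group for Pdyn, Oprm1 and Oprk1 as well, the shallowest of its group at 24.97 M gene counts (M, mega), and the highest of all libraries in reads with several alignments (10.29%). Whether depth or alignment had a part in its levels was not tested. Day 2 saline replicate 13 had 12.2 CPM of Tac1 against 14.5 to 14.6 CPM in the other 3, and was the shallowest library of all at 20.33 M. None of the 5 genes passed the edgeR test of a meth effect that differs between the days, which 0.136% of all genes passed. DESeq2 called Pdyn there (adjusted p = 0.00054), among 83 genes called of 13022 given an adjusted p.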

How the results depend on the processing

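Among the 5 genes, the count called stayed at 1 over withdrawal in meth rats and at 0 over withdrawal in saline rats, at day 35 and averaged over the days under every alternative run. At day 2 it was 0, and 1 with DESeq2 and with thinned counts (both Pdyn), and 0 to 1 with 1 library left out. For the difference of effects it was 0, and 1 with DESeq2 (Pdyn), the count with 1 library left out staying at 0. DESeq2 gave no adjusted p to Tac1, Oprm1 and Oprk1 at day 2 and over withdrawal in saline rats. Averaged over the days it gave none to Oprm1. Lane as a replicate block changed no call of the 5 genes (Pdyn adjusted p 0.095 at day 2 and 0.0090 over withdrawal in meth rats). Pairs of correlated genes were 1, and 5 with values centred on group means, where the permutation p-values are too small. DESeq2 gave an adjusted p to 5552 genes at day 2 and 14217 over withdrawal in meth rats, against 15413 with edgeR. It gave one to 10034 averaged over the days and 13022 for the difference of effects. Among these it called 115 at day 2 and 554 over withdrawal in meth rats, against 17 and 282 with edgeR. Averaged over the days it called 29 against 2, and for the difference of effects 83 against 21, and the cause was not tested. For that difference the count was 4 with the lane block, 6 with thinned counts, 9 with limma-voom (also with sample weights) or a filter at 1 CPM, 8 with size factors by median ratio, 13 without both shallow libraries, and 0 to 17 with 1 library left out. Voom with sample weights called 605 over withdrawal in meth rats. With 1 left out, the counts were 6 to 21 at day 2 and 104 to 305 over withdrawal in meth rats. Fits of only the groups compared could not give the difference of effects or the average.

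Directions turned only for differences that passed no threshold. At day 2, with 1 library left out, Penk ranged from -0.25 to 0.25 and Tac1 from -0.18 to 0.36 on the log2 scale. Without the shallowest library of each day 2 group, an alternative chosen after seeing the data, Penk was -0.22, Tac1 -0.24 and Oprm1 -0.039, and with limma-voom sample weights, also added later, Penk was -0.067 and Tac1 -0.029. At day 35 Oprk1 ranged from -0.037 to 0.25 with 1 library left out. For the difference of effects Oprm1 ranged from -0.22 to 0.088 with 1 left out, was 0.18 without both shallow libraries and 0.032 with sample weights. Over withdrawal in meth rats Penk ranged from -0.44 to 0.067, Tac1 from -0.50 to 0.076, Oprm1 from -0.21 to 0.10 and Oprk1 from -0.18 to 0.026 with 1 left out; without both shallow libraries they were 0.066, 0.076, 0.10 and 0.025. Over withdrawal in saline rats Pdyn ranged from -0.022 to 0.063 and Oprm1 from -0.088 to 0.097 with 1 left out. Pdyn was -0.016 and Oprm1 -0.077 without both shallow libraries, and Oprm1 was -0.012 with limma-voom and -0.037 with sample weights. Averaged over days Tac1 ranged from -0.24 to 0.035 and Oprk1 from -0.20 to 0.011. The log2 ratio of Pdyn to Tac1 ranged from -0.0079 to 0.22 between the drug groups at day 35 and from -0.22 to 0.0029 between the days in saline rats. The cause of these turns was not tested. Counting error is largest for Oprm1, at 45 to 157 reads per library.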
